A study of Mus musculus with 24 samples.

Results

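Gene expression was compared between livers of mice given dichloroacetic acid (DCA) at 3.5 g/L in their drinking water and livers of mice given DCA at 1 g/L, the highest and the lowest dose above 0 in the series. The comparison used the 6 libraries labelled 3.5 g/L and the 6 labelled 1 g/L, 12 of the 24 libraries, and no untreated animal entered it. All animals were male B6C3F1 mice, a cross of the inbred strains C57BL/6 and C3H, labelled 4 weeks old, and those of both doses drank DCA for 6 days, so the groups share the chemical and differ in its amount. RNA came from frozen liver of mixed lobes and was sequenced after removal of ribosomal RNA. Of 15582 genes in the table, 6312 reached 0.5 RPKM, which is the number of reads scaled to the length of the gene and to the mapped reads of the library, in at least 6 of the 12 libraries and were tested. The libraries at 2 g/L and at 0 g/L served only to show where the levels of these genes lay at the other doses.

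DCA is a small halogenated acid that forms when drinking water is chlorinated. It blocks pyruvate dehydrogenase kinases, which leaves more pyruvate dehydrogenase active, and it is removed by the glutathione transferase made from Gstz1, an enzyme that DCA itself inactivates. In rodent liver the nuclear receptor PPARα senses fatty acids and a range of acids given as drugs or found as pollutants, and it drives genes that hydroxylate, hydrolyse and oxidize fatty acids in microsomes, peroxisomes and mitochondria. The liver is also the source of most plasma proteins, and in mice many of its genes differ between the sexes under the control of growth hormone pulses.

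The 12 libraries were alike in depth, at about 23700000 to 28200000 reads each as estimated from the steps between low values. Within 3.5 g/L the libraries correlated across tested genes at r = 0.9865 to 0.9946, within 1 g/L at 0.9895 to 0.9948, and between the doses at 0.957 to 0.9749. The hepatocyte genes Alb, Asgr1 and Hnf4a (chosen after their values were seen) were high at both doses, with medians of 15680, 113 and 129.5 RPKM at 3.5 g/L, against 18250, 115 and 94.6 RPKM at 1 g/L. In the test described below Hnf4a was called higher at 3.5 g/L, and Alb and Asgr1 were not called. Of the other hepatocyte markers listed, Apoa1 and Ahsg were called lower (log2 differences of −0.54 and −0.42). Ttr lies beyond the last symbol of the table. The titles carry a tag that is L3 in all 6 libraries at 3.5 g/L, L1 in 3 libraries at 1 g/L and L2 in the other 3, and its meaning is not stated. Dose and tag L3 cannot be told apart. Between tags L2 and L1 within 1 g/L limma called 0 of 6312 genes (0.0%), with 570 (9.03%) at an unadjusted p under 0.05. Whether each library stands for a separate mouse is not spelled out in the labels, and the spread behind each p-value is that between libraries. In whole liver, fewer cells of a type and less RNA per cell cannot be told apart.

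Between 3.5 and 1 g/L, 2252 of 6312 genes (35.7%) differed at an adjusted p under 0.05 in limma, 1595 of them higher (25.3% of tested genes) and 657 lower (10.4%) at 3.5 g/L. The ranges of the 6 and 6 libraries did not overlap for 876 higher genes (13.9%) and 308 lower genes (4.88%). Most of these differences were small, with a median absolute log2 difference of 0.31 among called genes. A difference of 1 or more on the log2 scale was reached by 114 higher genes (1.81%) and 48 lower genes (0.76%), and a difference of 2 or more by 24 higher (0.38%) and 8 lower genes (0.127%). The balance of directions depends on scaling. Of the calls, 70.8% were higher with the values as deposited, 51.6% after scaling libraries by the median ratio and 46.2% after quantile normalization, and none of the 2252 called genes was called in the opposite direction under either. The first principal component held 66.1% of the variance of the 12 libraries and separated the doses, at 12.4 to 19.16 for 3.5 g/L and at −18.64 to −12.55 for 1 g/L. Spread within a dose was alike, with a median SD of 0.11 at 3.5 g/L and 0.11 at 1 g/L on the log2 scale.

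**Figure D1:**
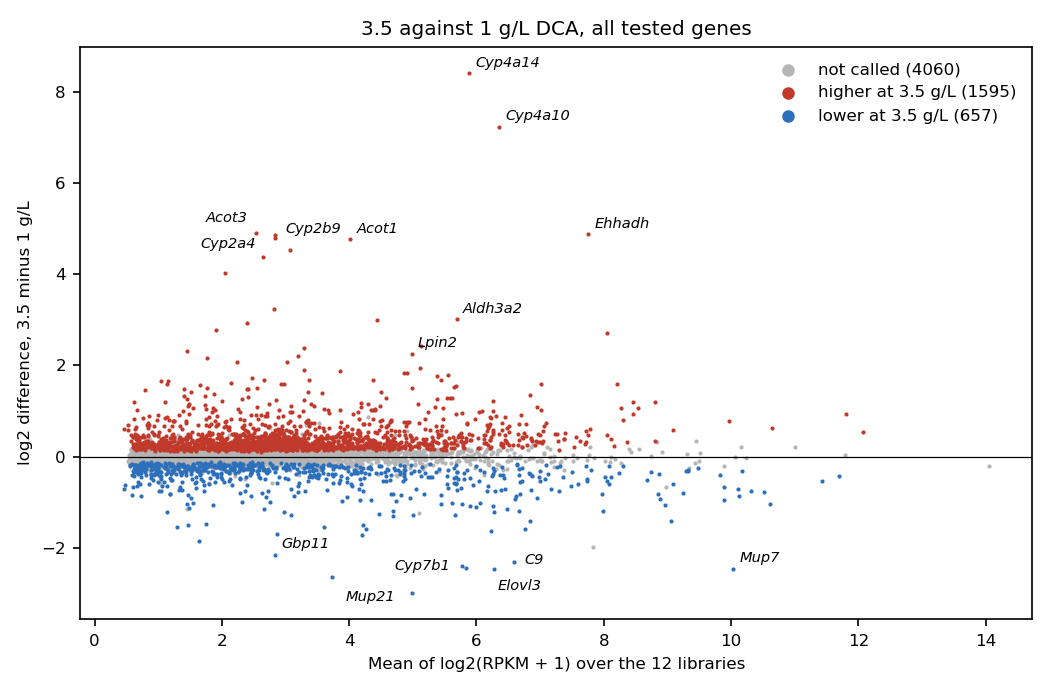
Each point is 1 of 6312 tested genes, with its mean log2(RPKM + 1) over the 12 libraries on the x axis and its log2 difference, 3.5 minus 1 g/L, on the y axis, coloured by its call at an adjusted p under 0.05. The largest differences are upward, with Cyp4a14 at 8.41 and Cyp4a10 at 7.23, while the lowest, that of Mup21, is −2.99.

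Below, the level of a gene is given as its lowest, median and highest RPKM over the 6 libraries of a dose. A log2 difference is that of log2(RPKM + 1), 3.5 minus 1 g/L, with its standard error (SE) and a p adjusted over all 6312 genes, and for genes of low RPKM it is smaller than the change in RPKM itself. Gene lists are described by how many of their tested members were called, to be read against 25.3% higher, 10.4% lower and a median log2 difference of 0.05 over all tested genes. After median-ratio scaling these shares were 18.5% higher and 17.3% lower, and after quantile scaling 16.4% and 19.1%. The medians over all tested genes were then −0.01 and −0.02. A gene could enter the test through 1 dose alone, and 24 tested genes had 0.5 RPKM or more in all 6 libraries at 3.5 g/L and in none at 1 g/L. All 24 were called higher, a direction that this way in favours, and those described below are Acot2, Acot3, Atf3 and Krt23. Others, such as Cyp2a4, Cyp2b9, Cpt1b and Lepr, had medians under 0.5 RPKM at 1 g/L. They passed mainly through 3.5 g/L, which favours the same direction.

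The largest log2 differences were those of genes that hydroxylate fatty acids, although the ratio of mean RPKM was larger for Acot3, a thioesterase described with its family. Cyp4a14, a cytochrome P450 that oxidizes the end of the fatty acid chain, had 737, 1126 and 1467 RPKM at 3.5 g/L, against 0.708, 2.17 and 6.62 RPKM at 1 g/L. Its close relative Cyp4a10 had 679, 1029 and 1375 RPKM at 3.5 g/L, against 1.81, 6.13 and 14.6 RPKM at 1 g/L. All 6 libraries at 3.5 g/L lay far above all 6 at 1 g/L for both genes, and the log2 differences were 8.41 ± 0.32, adjusted p = 3.26e-10 for Cyp4a14 and 7.23 ± 0.34, adjusted p = 1.68e-09 for Cyp4a10. Mean RPKM was 417 times as high at 3.5 g/L as at 1 g/L for Cyp4a14 and 152 times for Cyp4a10. Cyp4a31 had 29.8, 37.9 and 61.5 RPKM at 3.5 g/L, against 0.4496, 0.675 and 1.56 RPKM at 1 g/L, without overlap (4.52 ± 0.17, adjusted p = 2.88e-10). Cyp4a32 had 57.1, 59.05 and 65.4 RPKM at 3.5 g/L, against 5.44, 6.95 and 7.52 RPKM at 1 g/L, again without overlap (2.99 ± 0.07, adjusted p = 9.48e-13). These 4 genes lie on chromosome 4 between 115486200 and 115621602 in GRCm38, and their sequences are alike, so reads could have been shared among them. Cyp4a12a, a family member with male-biased expression that was chosen after its values were seen, had 56.6, 109 and 135 RPKM at 3.5 g/L, against 86.5, 102 and 112 RPKM at 1 g/L, with overlapping ranges and no call (0.02 ± 0.16, adjusted p = 0.934). Of 13 tested Cyp4 genes 6 rose and 2 fell, with a median log2 difference of 0.50, and those that fell were Cyp4v3 (−1.07 ± 0.09, adjusted p = 6.95e-07) and Cyp4f14 (−0.48 ± 0.10, adjusted p = 0.00198), which were singled out after their values were seen.

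Acyl-CoA thioesterases split fatty acyl-CoA into free fatty acid and coenzyme A. Of 10 tested genes of this family 9 rose and 0 fell, with a median log2 difference of 0.97. Acot1, a cytosolic enzyme, had 43.3, 91.8 and 113 RPKM at 3.5 g/L, against 1.19, 2.11 and 3.09 RPKM at 1 g/L (4.77 ± 0.20, adjusted p = 5.96e-10). Acot2, its mitochondrial relative, had 12.6, 30.9 and 41.8 RPKM at 3.5 g/L, against 0.294, 0.397 and 0.481 RPKM at 1 g/L (4.37 ± 0.20, adjusted p = 1.68e-09). Acot4, a peroxisomal one, had 13.8, 21.2 and 27.7 RPKM at 3.5 g/L, against 0.9205, 1.31 and 1.79 RPKM at 1 g/L (3.24 ± 0.14, adjusted p = 9.16e-10). The ranges of these 3 genes did not overlap. Acot3, also peroxisomal, had 16.6, 29.4 and 62.7 RPKM at 3.5 g/L, against 0.0285, 0.0471 and 0.0836 RPKM at 1 g/L (4.91 ± 0.25, adjusted p = 3.87e-09), so that it was near the floor of detection in every library at 1 g/L and clearly present in all 6 at 3.5 g/L. The ratio of its mean RPKM was 625, against 40.5 for Acot1, although their log2 differences were close. Acot2 and Acot3 are among the 24 genes that entered the test through 3.5 g/L alone. The 4 genes form a row on the plus strand of chromosome 12, from 83987861 to 84060402 in GRCm38, and share long stretches of sequence, so reads could have been split among them. The promoters of a pair of them are shown because these neighbours moved together. They run from 250 bases before to 50 after the start of the RefSeq transcript in GRCm38.p6, at chr12:84009252-84009551 (+) for Acot1 and at chr12:84038129-84038428 (+) for Acot4, with motifs in capitals.
Acot1: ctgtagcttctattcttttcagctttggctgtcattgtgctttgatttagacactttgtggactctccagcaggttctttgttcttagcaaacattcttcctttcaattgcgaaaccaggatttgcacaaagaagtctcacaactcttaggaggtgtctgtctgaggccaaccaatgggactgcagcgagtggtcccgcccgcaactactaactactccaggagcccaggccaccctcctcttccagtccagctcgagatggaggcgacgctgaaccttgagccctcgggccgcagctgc
Acot4: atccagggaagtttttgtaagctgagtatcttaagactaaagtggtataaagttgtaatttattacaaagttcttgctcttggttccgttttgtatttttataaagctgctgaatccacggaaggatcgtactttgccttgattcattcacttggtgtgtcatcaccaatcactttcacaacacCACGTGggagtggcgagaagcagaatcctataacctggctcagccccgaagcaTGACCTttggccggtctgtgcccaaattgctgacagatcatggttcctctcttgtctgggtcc
The capitals in Acot4 mark the E box CACGTG, the core that clock proteins and other basic helix-loop-helix factors bind, and AGGTCA on the minus strand, read here as TGACCT, the hexamer that nuclear receptors bind. Both strands were searched for CACGTG, for TTATGTAA (D box), for AGGTCA, and for the direct repeat of AGGTCA with any 1 base between the copies, which PPARα binds with its partner RXR. A looser direct repeat let the fourth base of each copy be any base. AGGTCA, which was added to the search after values were seen, also lies within the strict direct repeat. Over 32851 RefSeq promoters of the same length, 16.3% hold AGGTCA, 7.15% CACGTG, 0.938% TTATGTAA, 0.0396% the strict and 0.381% the looser direct repeat. Among tested genes with a promoter in the table, AGGTCA was in 16.1% of 1238 called higher, in 17.9% of 485 called lower and in 16.1% of all 4746. CACGTG was in 12.8% of those called higher, 10.1% of those called lower and 12.1% of all. A match is a description of the letters, and the lack of one in Acot1 says only that these letters are not in this window.

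Peroxisomes shorten very long fatty acids by beta-oxidation, and 17 of 20 tested genes of this pathway rose while 2 fell (median log2 difference 0.78). Ehhadh, the bifunctional enzyme of its middle steps, had 733, 1154 and 1819 RPKM at 3.5 g/L, against 30.1, 40.99 and 43.7 RPKM at 1 g/L (4.88 ± 0.17, adjusted p = 2.57e-10). Every library at 3.5 g/L was thus above 700 RPKM and every library at 1 g/L below 50. Acaa1b, a thiolase that ends the cycle, had 404, 756 and 1038 RPKM at 3.5 g/L, against 88.9, 101 and 130.2 RPKM at 1 g/L (2.71 ± 0.20, adjusted p = 2.17e-07). Crat, which moves short acyl groups onto carnitine, had 15.2, 23.1 and 24.1 RPKM at 3.5 g/L, against 2.47, 3.24 and 4.41 RPKM at 1 g/L (2.38 ± 0.13, adjusted p = 7.74e-09). Both were higher in all 6 libraries at 3.5 g/L. Abcd2, a transporter of very long acyl-CoA into the peroxisome, rose as well (1.57 ± 0.19, adjusted p = 2.1e-05). The 2 genes that fell were Nudt7 (−0.54 ± 0.14, adjusted p = 0.00767), which encodes a coenzyme A hydrolase, and Acox3 (−0.28 ± 0.06, adjusted p = 0.00335), an acyl-CoA oxidase, and the ranges of both overlapped. Nudt7 was not called against the 3 libraries of tag L2 alone (adjusted p = 0.106, range over all alternatives 0.000592 to 0.106). Abcd2, Nudt7 and Acox3 were chosen after their values were seen. The promoter of Ehhadh, at chr16:21787785-21788084 (−) in GRCm38.p6, is shown because this gene had the largest log2 difference of the pathway, and it holds none of the motifs searched.
Ehhadh: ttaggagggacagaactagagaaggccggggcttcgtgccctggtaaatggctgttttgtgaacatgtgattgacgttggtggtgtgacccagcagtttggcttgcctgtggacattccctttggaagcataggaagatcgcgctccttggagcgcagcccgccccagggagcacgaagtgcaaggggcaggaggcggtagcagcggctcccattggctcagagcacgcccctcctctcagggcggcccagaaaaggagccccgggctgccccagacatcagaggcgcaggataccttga
Fbf1, a gene for a centriole protein, also rose, with 9.75, 14.3 and 16.7 RPKM at 3.5 g/L, against 0.699, 0.927 and 1.15 RPKM at 1 g/L (2.93 ± 0.12, adjusted p = 5.94e-10). Its ranges did not overlap, and it is on none of the lists.

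Mitochondrial fatty acid oxidation moved as a block of smaller steps: of 24 tested genes 23 rose and 1 fell, with a median log2 difference of 0.71. Acsl1, which activates long fatty acids, rose (1.07 ± 0.10, adjusted p = 1.93e-06), as did Cpt2 (1.09 ± 0.10, adjusted p = 8.77e-07), the inner carnitine palmitoyltransferase. Acadm, the medium-chain acyl-CoA dehydrogenase, had 94.6, 116 and 141 RPKM at 3.5 g/L, against 43.2, 49.1 and 54.4 RPKM at 1 g/L (1.22 ± 0.09, adjusted p = 1.59e-07). Decr1 and Eci1, which handle double bonds, differed by 1.27 ± 0.09, adjusted p = 1.64e-07 and 1.29 ± 0.12, adjusted p = 1.04e-06. Hadha, a subunit of the trifunctional protein, rose (0.74 ± 0.08, adjusted p = 8.62e-06), and all libraries at 3.5 g/L lay above those at 1 g/L for each of these 6 genes. Cpt1b, the muscle form of the outer carnitine palmitoyltransferase, had 1.43, 2.45 and 5.42 RPKM at 3.5 g/L, against 0.00137, 0.133 and 1.46 RPKM at 1 g/L (1.59 ± 0.26, adjusted p = 0.000319), and its ranges met. The liver form Cpt1a differed by less, 0.42 ± 0.10, adjusted p = 0.00306, and was not called against the 3 libraries of tag L2 alone (adjusted p = 0.0553, range over all alternatives 0.0011 to 0.0553). Acadsb, which acts on branched-chain acyl groups from isoleucine, was the gene that fell (−0.54 ± 0.06, adjusted p = 1.53e-05). In ketogenesis, the making of ketone bodies from acetyl-CoA, 4 of 5 tested genes rose and 1 fell. Bdh2, a hydroxybutyrate dehydrogenase, fell (−0.38 ± 0.10, adjusted p = 0.0112), with overlapping ranges. It was not called in the fit to all 24 libraries or against the 3 libraries of tag L2 alone (adjusted p = 0.059 and 0.0701, range over all alternatives 0.00552 to 0.0701). Acsl1, Cpt2, Hadha, Cpt1a, Acadsb and Bdh2 were chosen after their values were seen.

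**Figure D2:**
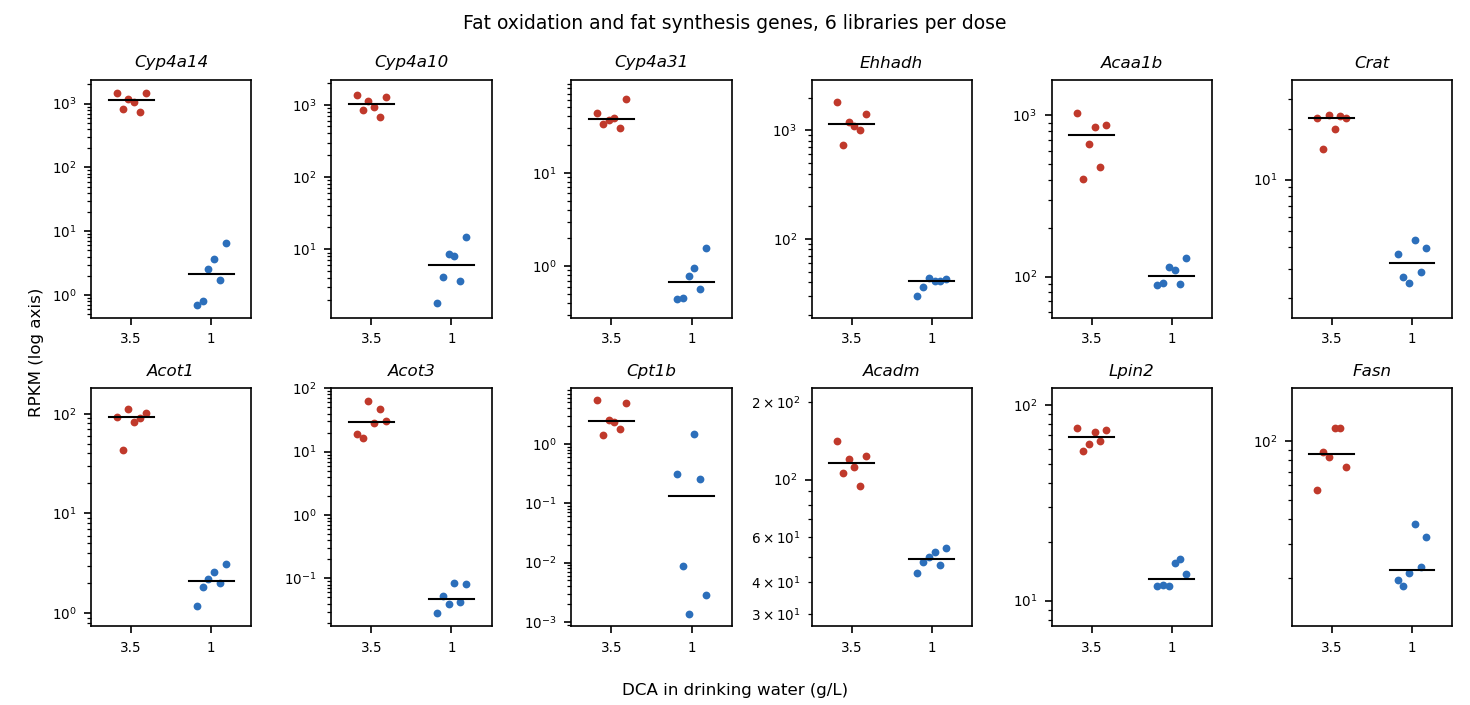
RPKM on log axes of 12 genes of fat oxidation and synthesis, with the 6 libraries at 3.5 g/L left of the 6 at 1 g/L and a bar at each median. The ranges do not touch for any gene but Cpt1b, whose 1 g/L libraries span 0.00137 to 1.46 RPKM.

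Genes that make and store fat rose alongside those that burn it. Of 27 tested genes of fatty acid and triglyceride synthesis, 16 rose and 1 fell (median log2 difference 0.40). Lpin2, a phosphatidate phosphatase that makes diacylglycerol, had 58.6, 69.1 and 76.2 RPKM at 3.5 g/L, against 11.9, 12.9 and 16.3 RPKM at 1 g/L (2.26 ± 0.09, adjusted p = 5.83e-10). Its sister gene Lpin1 had 5.81, 6.78 and 10.7 RPKM at 3.5 g/L, against 3.87, 8.34 and 9.73 RPKM at 1 g/L, which overlapped, and was not called (−0.04 ± 0.18, adjusted p = 0.876). Fasn, the fatty acid synthase, had 56.1, 86.05 and 116 RPKM at 3.5 g/L, against 18.3, 22.04 and 37.7 RPKM at 1 g/L (1.78 ± 0.20, adjusted p = 9.85e-06), and Acaca, the acetyl-CoA carboxylase that feeds it, rose by 1.01 ± 0.11 (adjusted p = 6.27e-06). Elovl6, which lengthens palmitate, differed by 1.87 ± 0.11, adjusted p = 1.37e-08 and Me1, malic enzyme, by 1.82 ± 0.14, adjusted p = 3.41e-07. The ranges of these 5 called genes did not overlap between the doses. Elovl3, which lengthens very long chains, was the exception, with 14.8, 31.4 and 57.6 RPKM at 3.5 g/L, against 146, 183 and 216 RPKM at 1 g/L (−2.47 ± 0.23, adjusted p = 2.04e-06), all 6 libraries at 3.5 g/L below all 6 at 1 g/L. Fasn and Acaca were singled out after their values were seen.

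Among genes of lipid droplets and lipid uptake 10 of 17 rose and 1 fell (median 0.68). G0s2, an inhibitor of adipose triglyceride lipase, had 50.2, 86.9 and 109 RPKM at 3.5 g/L, against 7.81, 13.9 and 25.99 RPKM at 1 g/L (2.42 ± 0.29, adjusted p = 1.88e-05). Cd36, which takes up fatty acids, had 9.29, 11.5 and 19.97 RPKM at 3.5 g/L, against 2.79, 3.11 and 5.29 RPKM at 1 g/L (1.6 ± 0.16, adjusted p = 3.3e-06). Mgll, monoglyceride lipase, had 22.6, 39 and 43.9 RPKM at 3.5 g/L, against 11.5, 12.8 and 14.98 RPKM at 1 g/L (1.42 ± 0.14, adjusted p = 2.04e-06). All 3 were higher in every library at 3.5 g/L. Hsd17b11, a droplet protein, differed by 1.76 ± 0.10, adjusted p = 8.09e-09. Fabp5, a fatty acid binding protein, fell (−0.76 ± 0.19, adjusted p = 0.00606, chosen after its value was seen), with overlapping ranges, and was not called against the 3 libraries of tag L1 alone (adjusted p = 0.0817, range over all alternatives 0.000877 to 0.0817). Apolipoproteins and their partners were split, with 4 higher and 8 lower of 20. Angptl4, an inhibitor of lipoprotein lipase, had 62.3, 66.3 and 71.7 RPKM at 3.5 g/L, against 12.6, 16.9 and 21.02 RPKM at 1 g/L (1.94 ± 0.10, adjusted p = 3.87e-09). Mttp, which loads lipid onto apolipoprotein B, differed by 0.57 ± 0.08, adjusted p = 0.000115. Apoa4 had 10.4, 13.6 and 17.2 RPKM at 3.5 g/L, against 28.8, 34.1 and 35.6 RPKM at 1 g/L (−1.25 ± 0.10, adjusted p = 3.51e-07). Apoa5 differed by −0.54 ± 0.09, adjusted p = 0.000213. Both were lower in all 6 libraries at 3.5 g/L. In cholesterol synthesis 2 of 15 rose and 7 fell (median −0.19). Mvk, mevalonate kinase, had 2.13, 3.02 and 3.54 RPKM at 3.5 g/L, against 5.03, 5.61 and 7.11 RPKM at 1 g/L (−0.76 ± 0.09, adjusted p = 2.33e-05). Idi1 differed by −0.53 ± 0.11, adjusted p = 0.00191, whereas Hsd17b7, a ketoreductase of the later steps, rose (0.75 ± 0.09, adjusted p = 2.21e-05). Against the 3 libraries of tag L1 alone 3 genes of the list were lower.

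Of 21 tested genes of bile acid synthesis and its control 7 rose and 5 fell, against 6 and 8 under either scaling, and 2 and 3 fell against the libraries of tag L1 and tag L2 alone. Among canalicular exporters Abcb4, which carries phospholipid into bile, had 58.4, 74.8 and 82.9 RPKM at 3.5 g/L, against 24.7, 29.1 and 31.2 RPKM at 1 g/L (1.29 ± 0.10, adjusted p = 1.89e-07). Abcc2, which exports conjugates, had 99.1, 104 and 128 RPKM at 3.5 g/L, against 47.3, 53.5 and 57.8 RPKM at 1 g/L (1.01 ± 0.07, adjusted p = 1.85e-07). Abcg5, a partner in sterol export, differed by 1.02 ± 0.09, adjusted p = 6.47e-07. None of the 3 overlapped between doses. Cyp7b1, a hydroxylase of oxysterols and steroids, was the strongest fall of the list, with 13.2, 22.8 and 41.8 RPKM at 3.5 g/L, against 102, 133 and 177 RPKM at 1 g/L (−2.44 ± 0.22, adjusted p = 9.98e-07). Nr1h4, the bile acid receptor FXR, rose by 0.56 ± 0.07 (adjusted p = 4.12e-05).

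Sugar metabolism rose in part. Of 21 tested genes of glucose and glycogen enzymes 14 rose and 1 fell (median 0.54). Gpd1, the cytosolic glycerol phosphate dehydrogenase, had 79.5, 108 and 115 RPKM at 3.5 g/L, against 46.6, 51.7 and 66.8 RPKM at 1 g/L (0.88 ± 0.11, adjusted p = 3.61e-05). Gpd2, the mitochondrial one, had 11.3, 14.7 and 15.5 RPKM at 3.5 g/L, against 4.87, 5.31 and 6.46 RPKM at 1 g/L (1.23 ± 0.08, adjusted p = 6e-08). Gbe1, the glycogen branching enzyme, differed by 1.02 ± 0.12, adjusted p = 9.85e-06, and G6pc, which releases glucose from the liver, by 0.86 ± 0.13, adjusted p = 0.000199. The ranges of these 4 did not overlap. Aldoc, an aldolase, was the gene that fell (−0.36 ± 0.08, adjusted p = 0.00289, chosen after its value was seen), and it was not called against the 3 libraries of tag L1 alone (adjusted p = 0.0516, range over all alternatives 0.00061 to 0.0516).

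Mitochondrial genes rose in number but by little. Of 65 tested genes of oxidative phosphorylation 54 rose and 0 fell, with a median log2 difference of 0.30, and 44 or 40 rose under median-ratio or quantile scaling. Ndufb8 of the first complex had 82.04, 92.8 and 102 RPKM at 3.5 g/L, against 51.7, 63.8 and 67.9 RPKM at 1 g/L (0.58 ± 0.08, adjusted p = 4.9e-05). Cox5b of cytochrome c oxidase had 117, 128 and 140.1 RPKM at 3.5 g/L, against 76.6, 89.7 and 104 RPKM at 1 g/L (0.52 ± 0.09, adjusted p = 0.000299). Neither overlapped between doses. Of 18 genes of pyruvate entry and the citric acid cycle 13 rose and 0 fell (median 0.36). Cs, citrate synthase, had 32.4, 34.1 and 36.4 RPKM at 3.5 g/L, against 20.8, 22.5 and 26.03 RPKM at 1 g/L (0.56 ± 0.06, adjusted p = 4.04e-06). Dlat, a subunit of the pyruvate dehydrogenase complex that DCA activates, had 6.31, 7.16 and 8.38 RPKM at 3.5 g/L, against 3.82, 4.83 and 5.74 RPKM at 1 g/L (0.48 ± 0.08, adjusted p = 0.000304). All libraries at 3.5 g/L were above those at 1 g/L for both genes. The genes of the pyruvate dehydrogenase kinases lie beyond the last symbol of the table and were not analysed here. Of 77 mitochondrial ribosomal protein genes 32 rose and 0 fell (median 0.17), but 18 rose after median-ratio and 10 after quantile scaling, 21 without library 99 or without library 102 of 3.5 g/L, and 17 and 18 against the libraries of tag L1 and tag L2 alone. Of 23 ribosome biogenesis factors 9 rose and 0 fell (median 0.13), against 3 higher and 4 lower after quantile scaling and 2 higher against tag L2 alone.

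Among glutathione transferases and other genes that the stress factor NRF2 drives, 22 of 32 were higher and 2 lower, with a median log2 difference of 0.56. Gsta1 had 3.796, 6.697 and 9.22 RPKM at 3.5 g/L, against 0.205, 0.554 and 1.06 RPKM at 1 g/L (2.17 ± 0.17, adjusted p = 3.67e-07). Gsta2, a near-identical transferase whose reads can be shared with it, had 11.9, 15.8 and 22.3 RPKM at 3.5 g/L, against 1.75, 2.78 and 5.95 RPKM at 1 g/L (2.08 ± 0.20, adjusted p = 2.24e-06). Gstt2 had 11.9, 19.1 and 26.4 RPKM at 3.5 g/L, against 2.58, 5.01 and 7.22 RPKM at 1 g/L (1.69 ± 0.21, adjusted p = 2.97e-05). Ephx1, microsomal epoxide hydrolase, had 163, 238 and 276 RPKM at 3.5 g/L, against 61.3, 71.05 and 102 RPKM at 1 g/L (1.6 ± 0.14, adjusted p = 8.49e-07). All were higher in every library at 3.5 g/L. Nfe2l2, which encodes NRF2, had 23.8, 26.3 and 30.02 RPKM at 3.5 g/L, against 8.18, 11.7 and 12.9 RPKM at 1 g/L (1.17 ± 0.10, adjusted p = 5.21e-07). Nqo1, a classic target, differed by 0.78 ± 0.12, adjusted p = 0.000232. Gclc and Gclm, on the same list, were not called (0.32 and 0.03), and Srxn1 and Txnrd1 lie beyond the last symbol of the table. Gstp1 and Gstp2, another near-identical pair, were the exceptions, at −0.96 ± 0.16, adjusted p = 0.000312 and −0.94 ± 0.15, adjusted p = 0.000303, without overlap. Nfe2l2, Nqo1, Gclc, Gclm, Gstp1 and Gstp2 were chosen after their values were seen. Of 12 genes of DCA, glyoxylate and tyrosine breakdown 4 rose and 3 fell, and the median, 0.06 as deposited, was −0.01 after median-ratio scaling, with 5 lower under either scaling. Gstz1 itself had 118, 122 and 130.3 RPKM at 3.5 g/L, against 121, 131 and 141 RPKM at 1 g/L. Its ranges overlapped and it was not called (−0.08 ± 0.06, adjusted p = 0.262), whereas median-ratio and quantile scaling called it lower (adjusted p = 0.0243 and 0.026, range over all alternatives 0.0243 to 0.618). Grhpr, glyoxylate reductase, differed by 0.48 ± 0.09, adjusted p = 0.000869 and Hgd, of tyrosine breakdown, by 0.39 ± 0.06, adjusted p = 0.000293, while Hao1, which makes glyoxylate, had 56.7, 63.5 and 72.4 RPKM at 3.5 g/L, against 74.4, 85.6 and 103 RPKM at 1 g/L (−0.41 ± 0.08, adjusted p = 0.00116), lower in all 6 libraries at 3.5 g/L.

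**Figure D3:**
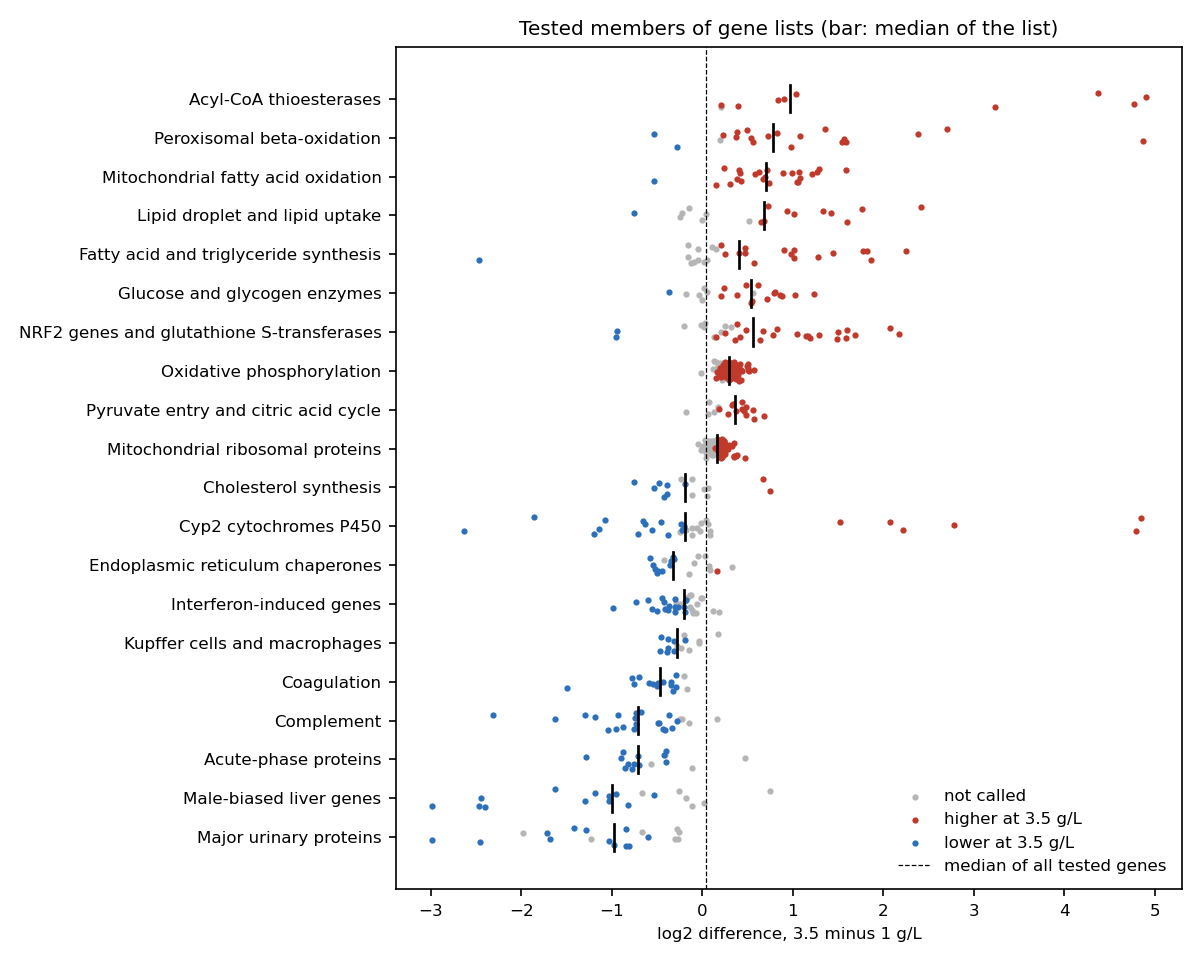
Log2 differences, 3.5 minus 1 g/L, of the tested members of 20 gene lists, 1 point per gene coloured by call, with a bar at the median of each list and a dashed line at the median of all tested genes, 0.05. Fat oxidation lists lie to the right, with medians of 0.71 to 0.97, and complement, acute-phase, male-biased and urinary protein lists to the left, with medians of −0.71 to −0.99.

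Most male-biased liver genes fell. Of 18 tested 0 rose and 12 fell, with a median log2 difference of −0.99. Those not called were Cyp4a12a, given above, Cyp4a12b, Cyp2d9, Cyp2u1, Mup1 and Mup20, with log2 differences from −0.66 (Mup20) to 0.75 (Cyp4a12b). Hsd3b5, a steroid reductase, had 6.15, 22.8 and 55.5 RPKM at 3.5 g/L, against 112, 127 and 134 RPKM at 1 g/L (−2.4 ± 0.35, adjusted p = 0.000123). Cyp7b1 and Elovl3, given above, are on the same list, as are Gstp1, Nudt7 and Egfr, and so is Mup21, with 2.23, 10.1 and 25.2 RPKM at 3.5 g/L, against 43.9, 96.9 and 115 RPKM at 1 g/L (−2.99 ± 0.42, adjusted p = 7.46e-05). All 6 libraries at 3.5 g/L lay below all 6 at 1 g/L for each of the 4. Major urinary proteins, pheromone carriers that male liver secretes, showed 0 higher and 12 lower of 19 tested (median −0.98). Mup7 had 109, 634 and 1055 RPKM at 3.5 g/L, against 2104, 2369 and 3148 RPKM at 1 g/L (−2.45 ± 0.46, adjusted p = 0.000895), with no overlap but a wide range at 3.5 g/L. Their genes are near-identical copies on chromosome 4, so the split of reads among them is uncertain, and some of the same genes are on the male-biased list.

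Female-biased genes were mixed, with 6 higher and 3 lower of 12 (median 0.44), and Acot3 and Abcd2 are among those that rose. The median was 0.695 and 1 gene was lower against the 3 libraries of tag L1 alone, and the median was 0.225 against the 3 of tag L2 alone. Cyp2a4, a steroid 15α-hydroxylase, had 22.9, 32.03 and 92.8 RPKM at 3.5 g/L, against 0.0782, 0.235 and 1.44 RPKM at 1 g/L (4.79 ± 0.29, adjusted p = 2.85e-08). Cyp2b9 had 15.8, 31.4 and 129.5 RPKM at 3.5 g/L, against 0.125, 0.271 and 0.897 RPKM at 1 g/L (4.85 ± 0.36, adjusted p = 2.08e-07). Both were below 2 RPKM in every library at 1 g/L and above 15 in every one at 3.5 g/L, and library 99 was the highest of its dose for both, at 92.8 RPKM for Cyp2a4 and 129.5 for Cyp2b9. The near-identical gene Cyp2a5 (1.52 ± 0.22, adjusted p = 9.85e-05) rose as well, as did Cyp2a22 (2.78 ± 0.22, adjusted p = 3.41e-07). Another tested Cyp2a gene was called lower (−0.22), and reads could have been shared among Cyp2a genes. Cyp17a1, a steroid 17α-hydroxylase, rose (1.49 ± 0.28, adjusted p = 0.000835), with overlapping ranges. Cyp2c40 fell, with 1.66, 2.72 and 24.3 RPKM at 3.5 g/L, against 5.39, 35.1 and 73.2 RPKM at 1 g/L (−2.63 ± 0.62, adjusted p = 0.00422), and Cyp2c69 fell too (−1.86 ± 0.47, adjusted p = 0.0065), both with overlapping ranges, and against the 3 libraries of tag L1 alone neither was called (adjusted p = 0.0646 for Cyp2c40 and 0.0871 for Cyp2c69, with ranges over all alternatives of 0.000587 to 0.0646 and 0.000553 to 0.0871). Over all 32 tested Cyp2 genes 6 rose and 15 fell (median −0.19), but 7 were lower against tag L1 alone (median −0.115). The others that rose were Cyp2c38 (2.08 ± 0.21, adjusted p = 4.57e-06) and Cyp2c39 (2.21 ± 0.33, adjusted p = 0.000119). Cyp2a5, Cyp17a1, Cyp2c69, Cyp2c38 and Cyp2c39 were chosen after their values were seen. The promoters of Cyp2a4, at chr7:26306942-26307241 (+), and of Hsd3b5, at chr3:98645485-98645784 (−), both in GRCm38.p6, stand for a female-biased gene that rose and a male-biased gene that fell.
Cyp2a4: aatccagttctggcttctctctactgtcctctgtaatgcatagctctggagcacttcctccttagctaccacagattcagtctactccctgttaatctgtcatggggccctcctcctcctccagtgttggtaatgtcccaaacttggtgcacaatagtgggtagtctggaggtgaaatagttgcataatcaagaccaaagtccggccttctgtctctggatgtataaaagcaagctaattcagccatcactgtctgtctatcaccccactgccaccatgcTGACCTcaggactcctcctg
Hsd3b5: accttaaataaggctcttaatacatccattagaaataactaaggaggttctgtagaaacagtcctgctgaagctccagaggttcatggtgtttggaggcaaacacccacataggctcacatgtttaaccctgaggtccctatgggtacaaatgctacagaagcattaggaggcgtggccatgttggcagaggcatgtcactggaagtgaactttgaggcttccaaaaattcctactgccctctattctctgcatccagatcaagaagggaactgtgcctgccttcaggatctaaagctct
The capitals in Cyp2a4 mark AGGTCA on the minus strand, which lies after the transcript start, and Hsd3b5 holds none of the motifs searched.
In the list of insulin signalling and the growth hormone axis 3 rose and 5 fell of 17 (median 0.02 as deposited, −0.05 and −0.10 after median-ratio and quantile scaling). Ghr, the growth hormone receptor, had 43.9, 49.6 and 60.9 RPKM at 3.5 g/L, against 62.8, 67.1 and 80.6 RPKM at 1 g/L (−0.46 ± 0.08, adjusted p = 0.000584). Igf1, which it induces, had 35.4, 43.5 and 50.8 RPKM at 3.5 g/L, against 48.5, 59.9 and 70.5 RPKM at 1 g/L (−0.45 ± 0.11, adjusted p = 0.00395). Igfals and Igfbp3, which carry IGF1 in plasma, differed by −0.72 ± 0.16, adjusted p = 0.00269 and −0.58 ± 0.10, adjusted p = 0.000673, and Egfr by −0.82 ± 0.15, adjusted p = 0.000686. All of these were lower, without overlap except for Igf1, while Igfbp2, another binding protein, rose (0.71 ± 0.15, adjusted p = 0.00162), with overlapping ranges. Ghr and Igf1 were chosen after their values were seen.

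Plasma proteins made by the liver fell across 3 lists. Of 24 complement genes 0 rose and 20 fell, with a median log2 difference of −0.71. C9, the last component of the membrane attack complex, had 26.5, 46.8 and 60.6 RPKM at 3.5 g/L, against 180.0, 219 and 266 RPKM at 1 g/L (−2.31 ± 0.20, adjusted p = 6.95e-07). C8b, of the same complex, had 34.2, 39.8 and 56.2 RPKM at 3.5 g/L, against 122, 127 and 154 RPKM at 1 g/L (−1.62 ± 0.11, adjusted p = 7.03e-08). C8a had 53.6, 68.97 and 76.6 RPKM at 3.5 g/L, against 147, 151 and 161 RPKM at 1 g/L (−1.19 ± 0.09, adjusted p = 2.06e-07). None of these overlapped between doses. C6 had 7.95, 15.3 and 31 RPKM at 3.5 g/L, against 26.1, 42.3 and 44.6 RPKM at 1 g/L (−1.29 ± 0.23, adjusted p = 0.00053), and its ranges met, since library 100 was the highest at 3.5 g/L and library 54 the lowest at 1 g/L. C6, C8a and C8b are also on the male-biased list. Of 16 coagulation genes 0 rose and 14 fell (median −0.46). F11, a factor of the contact pathway, had 8.402, 10.3 and 11.1 RPKM at 3.5 g/L, against 25.9, 30.6 and 33.5 RPKM at 1 g/L (−1.49 ± 0.07, adjusted p = 3.87e-09). F2, prothrombin, had 192, 228 and 232 RPKM at 3.5 g/L, against 304, 321 and 334 RPKM at 1 g/L (−0.54 ± 0.06, adjusted p = 1.02e-05). The fibrinogen chains Fga and Fgg differed by −0.70 ± 0.11, adjusted p = 0.000184 and −0.75 ± 0.10, adjusted p = 7.46e-05, with all libraries at 3.5 g/L lower, and quantile scaling left the third chain, Fgb, short of a call (adjusted p = 0.0516 against 1.78e-05 as deposited, range over all alternatives 6.29e-06 to 0.0516). Of 16 acute-phase genes 0 rose and 12 fell (median −0.71). Hpx, hemopexin, had 643, 867 and 1012 RPKM at 3.5 g/L, against 1238, 1472 and 1914 RPKM at 1 g/L (−0.86 ± 0.12, adjusted p = 9.59e-05). Lifr, which receives signals of the interleukin-6 family, had 16.8, 19.4 and 21.6 RPKM at 3.5 g/L, against 35.5, 47.8 and 79.3 RPKM at 1 g/L (−1.28 ± 0.15, adjusted p = 2e-05), and the receptors Il6ra and Il1r1 differed by −0.87 ± 0.13, adjusted p = 0.000155 and −0.89 ± 0.13, adjusted p = 9.31e-05. The fibrinogen chains are on both the coagulation and the acute-phase list. F2 was chosen after its value was seen.

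**Figure D4:**
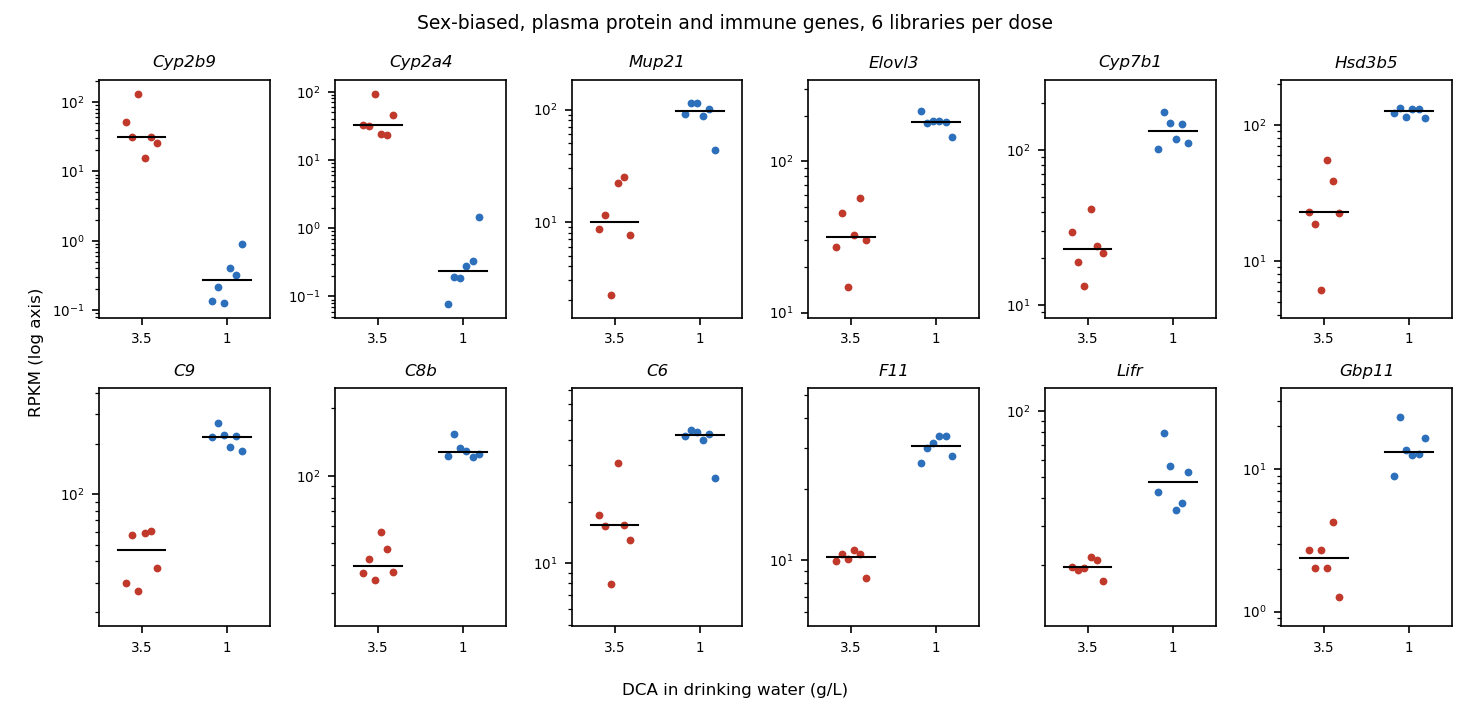
RPKM on log axes of 12 genes of sex-biased expression, plasma proteins and immunity, with the 6 libraries at 3.5 g/L left of the 6 at 1 g/L and a bar at each median. Cyp2b9 and Cyp2a4 lie higher at 3.5 g/L, the other 10 genes lower, and the ranges touch only for C6.

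Hepatocyte core genes were divided, with 4 higher and 8 lower of 19 (median −0.20). The nuclear receptors Nr1i3 (0.83 ± 0.10, adjusted p = 1.53e-05) and Hnf4a (0.46 ± 0.06, adjusted p = 2.54e-05) rose, whereas Ambp, which encodes the precursor of a plasma carrier, had 394, 449 and 484 RPKM at 3.5 g/L, against 593, 674 and 744 RPKM at 1 g/L (−0.60 ± 0.08, adjusted p = 3.46e-05). Albumin was not called (−0.20 ± 0.10, adjusted p = 0.152). Hnf4a and Alb were chosen after their values were seen. Of 19 endoplasmic reticulum chaperones 1 rose and 10 fell (median −0.33). Calr, calreticulin, had 143, 173 and 204 RPKM at 3.5 g/L, against 227, 251 and 293 RPKM at 1 g/L (−0.54 ± 0.09, adjusted p = 0.00047). Hsp90b1 had 153, 182 and 197 RPKM at 3.5 g/L, against 217, 242 and 318 RPKM at 1 g/L (−0.49 ± 0.10, adjusted p = 0.00169). Both were lower in all 6 libraries at 3.5 g/L. Only 5 of the chaperones were called lower against the 3 libraries of tag L2 alone. Cytosolic and mitochondrial heat shock proteins showed 6 higher and 0 lower of 20 (median 0.21), led by Dnajb4 (0.59 ± 0.07, adjusted p = 3.06e-05). Only 3 and 2 of them were higher after median-ratio and quantile scaling, and 3 and 2 against tag L1 and tag L2 alone.

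Genes of drug and hormone oxidation outside Cyp2 were mixed. Cyp1a2, which oxidizes caffeine and aromatic amines, had 74.9, 90.01 and 106 RPKM at 3.5 g/L, against 155, 169 and 182 RPKM at 1 g/L (−0.92 ± 0.08, adjusted p = 5.49e-07) and was the member called among 6 tested Cyp1 and Cyp3a genes, of which 2 were called without library 98 or 99 of 3.5 g/L or 49 or 54 of 1 g/L, and 3 without library 52 of 1 g/L. The median of these 6, 0.08 as deposited, was −0.01 after quantile scaling. Of 28 carboxylesterases, flavin monooxygenases and aldehyde dehydrogenases 8 rose and 6 fell, against 7 and 9 after median-ratio and 7 and 12 after quantile scaling. Aldh3a2, which oxidizes fatty aldehydes, had 76.4, 164 and 242 RPKM at 3.5 g/L, against 13.2, 16.6 and 22.8 RPKM at 1 g/L (3.01 ± 0.23, adjusted p = 2.06e-07), while the carboxylesterases Ces3b, with 47.4, 64.9 and 76.8 RPKM at 3.5 g/L, against 159.7, 180.3 and 237 RPKM at 1 g/L (−1.59 ± 0.12, adjusted p = 2.78e-07), and Ces2a (−1.05 ± 0.10, adjusted p = 2.24e-06) fell without overlap. Genes of the pericentral zone, the hepatocytes around the central vein, had 4 higher and 4 lower of 16, and urea cycle and periportal genes 1 higher and 4 lower of 12. Lect2, a pericentral gene and secreted factor, had 20.1, 27 and 31.8 RPKM at 3.5 g/L, against 40.3, 49.1 and 53.04 RPKM at 1 g/L (−0.82 ± 0.12, adjusted p = 8.61e-05). Hal, histidine ammonia-lyase of the periportal zone, had 64.4, 64.7 and 73.6 RPKM at 3.5 g/L, against 79.1, 87.3 and 93.5 RPKM at 1 g/L (−0.38 ± 0.06, adjusted p = 0.000122). Both were lower without overlap. Of 16 methionine cycle and one-carbon enzymes 3 rose and 4 fell, against 1 and 6 after median-ratio scaling, 1 and 7 after quantile scaling, 1 and 3 against tag L1 alone and 1 and 2 against tag L2 alone. Mat1a, which makes S-adenosylmethionine, had 612, 670.5 and 803 RPKM at 3.5 g/L, against 237, 302 and 365 RPKM at 1 g/L (1.19 ± 0.10, adjusted p = 6.75e-07), higher in all 6 libraries at 3.5 g/L.

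Of 33 tested interferon-induced genes 0 rose and 17 fell (median −0.20), and 21 fell under either scaling. Gbp11, a guanylate-binding protein outside the list, had 1.27, 2.36 and 4.22 RPKM at 3.5 g/L, against 8.93, 13.2 and 23.01 RPKM at 1 g/L (−2.15 ± 0.20, adjusted p = 1.97e-06). Ifi47, an interferon-inducible GTPase, had 1.77, 2.58 and 3.23 RPKM at 3.5 g/L, against 5.19, 5.91 and 7.22 RPKM at 1 g/L (−0.98 ± 0.10, adjusted p = 4.16e-06). Isg15 had 1.35, 1.83 and 2.46 RPKM at 3.5 g/L, against 2.97, 3.21 and 3.98 RPKM at 1 g/L (−0.60 ± 0.09, adjusted p = 0.000198). All 6 libraries at 3.5 g/L lay below all 6 at 1 g/L for the 3 genes. Among MHC genes 1 rose and 5 fell of 17, and 3 were lower against either tag alone. B2m, the light chain of class I molecules, differed by −0.34 ± 0.08, adjusted p = 0.00432 and H2-T23 by −0.44 ± 0.08, adjusted p = 0.000666, with H2 genes so alike that their reads can be shared. Markers of Kupffer cells, the macrophages of the liver, had 0 higher and 8 lower of 15 (median −0.28), but 12 lower after median-ratio and 11 after quantile scaling, and 5 in the fit to all 24 libraries or against tag L2 alone. Their summed level was 80.2 to 110.1 RPKM at 3.5 g/L and 114 to 139.6 RPKM at 1 g/L (lowest to highest), so the ranges did not overlap. Clec4f, a lectin of Kupffer cells, had 11.7, 15.2 and 18.2 RPKM at 3.5 g/L, against 18.9, 20.8 and 24.9 RPKM at 1 g/L (−0.46 ± 0.10, adjusted p = 0.0017). C1qb, a complement subunit that macrophages make, had 6.87, 9.08 and 10.1 RPKM at 3.5 g/L, against 10.3, 12.2 and 14.9 RPKM at 1 g/L (−0.46 ± 0.09, adjusted p = 0.0012). The part of Kupffer cells in the interferon, MHC and complement results was not tested.

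Few markers of other cell types were called. Endothelial markers showed 0 higher and 2 lower of 14 (Kdr and Flt1, by −0.17 and −0.16), but 9 lower under either scaling, 0 against the 3 libraries of tag L1 alone, 5 without library 49 of 1 g/L and 1 without library 98, 101 or 102 of 3.5 g/L or library 50 of 1 g/L. Flt1 was also not called against tag L2 alone (adjusted p = 0.0792, range over all alternatives 0.0021 to 0.111). The summed level of these markers was 79.98 to 90.3 RPKM at 3.5 g/L and 88.9 to 96.1 RPKM at 1 g/L. Of 18 stellate cell and fibroblast markers 0 rose and 1 fell, against 3 lower after median-ratio scaling, 4 after quantile scaling and 0 against tag L2 alone. The summed levels, 104 to 137 RPKM at 3.5 g/L and 112 to 148 RPKM at 1 g/L, overlapped. The marker that fell, Colec11, lost its call without library 97, 100 or 102 of 3.5 g/L or 49, 50 or 51 of 1 g/L (adjusted p = 0.0511 to 0.0762), with no filter on low values or against tag L2 alone (adjusted p = 0.0657 and 0.276, range over all alternatives 0.00708 to 0.276). Of 4 tested bile duct markers 3 rose. Krt23, a keratin, had 2.02, 3.21 and 3.65 RPKM at 3.5 g/L, against 0.1401, 0.277 and 0.359 RPKM at 1 g/L (1.67 ± 0.09, adjusted p = 8.09e-09), without overlap, and entered the test through 3.5 g/L alone. Krt18 (0.44 ± 0.12, adjusted p = 0.0106) and Krt8 (0.37 ± 0.11, adjusted p = 0.0142) are keratins of hepatocytes too. Against tag L2 alone neither Krt18 nor Krt8 was called (adjusted p = 0.0683 and 0.112), and Krt8 was not called after quantile scaling (adjusted p = 0.0726). Their ranges over all alternatives were 0.00237 to 0.0683 for Krt18 and 0.00359 to 0.112 for Krt8. The defining duct markers Krt19, Krt7, Epcam and Cftr were below the filter, with medians of 0.602, 0.321, 0.206 and 0.00566 RPKM at 3.5 g/L and of 0.343, 0.195, 0.127 and 0.0169 RPKM at 1 g/L. Of 20 lymphocyte markers none passed the filter, Igll1 was listed at 0 in all 12 libraries, and the summed level was 1.37 to 7.43 RPKM at 3.5 g/L and 1.28 to 11.2 RPKM at 1 g/L. Summed bile duct markers were at 124 to 184 RPKM at 3.5 g/L and 99.2 to 145 RPKM at 1 g/L. Most of this sum came from Krt18 and Krt8, which hepatocytes make too. Their medians were 94.5 and 68.9 RPKM at 3.5 g/L, and 62.5 and 51.9 RPKM at 1 g/L. Of 2 tested neutrophil markers neither was called, and the sums were 2.87 to 6.51 RPKM at 3.5 g/L and 3.35 to 10.8 RPKM at 1 g/L. Of 11 erythroid markers 2 rose and 1 fell, the globins were not called, and the sums were 324 to 668 RPKM at 3.5 g/L and 397 to 691 RPKM at 1 g/L. The gene that fell, Alas2, the heme synthesis enzyme of red cells, had 11.3, 15.5 and 21.8 RPKM at 3.5 g/L, against 32.03, 37.1 and 44.4 RPKM at 1 g/L (−1.18 ± 0.14, adjusted p = 1.79e-05), without overlap, while 6 markers were called without library 102 of 3.5 g/L and 1 rose under either scaling and 0 against tag L2 alone.

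Core clock genes moved in both directions, with 5 higher and 4 lower of 13. The repressor Nr1d1 had 13.04, 17.3 and 25.04 RPKM at 3.5 g/L, against 3.22, 3.88 and 5.71 RPKM at 1 g/L (1.91 ± 0.14, adjusted p = 2.06e-07). Nr1d2 had 6.104, 9.15 and 12.7 RPKM at 3.5 g/L, against 2.91, 3.34 and 4.29 RPKM at 1 g/L (1.15 ± 0.15, adjusted p = 3.58e-05). Neither overlapped between doses. Arntl, the activator that Nr1d1 represses, had 0.927, 3.32 and 7.67 RPKM at 3.5 g/L, against 7.03, 8.51 and 9.32 RPKM at 1 g/L (−1.14 ± 0.26, adjusted p = 0.00338), with ranges that met. Nfil3, a D box repressor, had 2.62, 4.43 and 8.49 RPKM at 3.5 g/L, against 9.31, 12.6 and 13.8 RPKM at 1 g/L (−1.27 ± 0.20, adjusted p = 0.000234), lower in all 6 libraries at 3.5 g/L. The hour at which each liver was taken is not given in the labels, and its part in these differences was not tested. Only 3 of these genes were higher and 2 lower against the 3 libraries of tag L2 alone, 6 and 2 against those of tag L1 alone, and the median of the list, 0.08 as deposited, was −0.06 after quantile scaling.

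Among genes of G1, replication and mitosis 4 rose and 2 fell of 27 tested, against 3 and 5 after median-ratio scaling, and 2 and 5 after quantile scaling or against tag L2 alone. Ccnd1, cyclin D1, had 6.47, 11.8 and 16.7 RPKM at 3.5 g/L, against 4.02, 4.22 and 6.53 RPKM at 1 g/L (1.11 ± 0.17, adjusted p = 0.000198), with ranges that met between the lowest library at 3.5 g/L and the highest at 1 g/L. Mcm10, a replication factor, had 2.42, 3.37 and 5.83 RPKM at 3.5 g/L, against 6.12, 8.304 and 13.7 RPKM at 1 g/L (−1.0 ± 0.18, adjusted p = 0.000685). Mki67, a marker of dividing cells chosen after its value was seen, had 0.584, 1.32 and 3.29 RPKM at 3.5 g/L, against 0.672, 1.23 and 2.58 RPKM at 1 g/L and was not called (0.10 ± 0.24, adjusted p = 0.787). Of 11 p53 response genes 7 rose and 0 fell (median 0.31, and 0.17 against tag L2 alone). Gdf15, a secreted stress factor, had 2.55, 3.02 and 4.696 RPKM at 3.5 g/L, against 0.485, 0.575 and 1.12 RPKM at 1 g/L (1.33 ± 0.11, adjusted p = 7.92e-07), and Fas (0.61 ± 0.07, adjusted p = 2.2e-05), Aen (0.44 ± 0.06, adjusted p = 9.51e-05) and Mdm2 (0.37 ± 0.06, adjusted p = 0.000413) were higher by less, all without overlap, but Cdkn1a, a main p53 target, was not called (0.04 ± 0.25, adjusted p = 0.92). Mdm2 and Cdkn1a were chosen after their values were seen. Among ATF4 stress genes 8 rose and 2 fell of 17 (median 0.16), but 5 were higher after median-ratio scaling, after quantile scaling (median 0.03) or against tag L2 alone. Ddit4 had 0.527, 0.666 and 0.858 RPKM at 3.5 g/L, against 1.09, 1.605 and 2.33 RPKM at 1 g/L (−0.64 ± 0.11, adjusted p = 0.000529). Atf3, which entered the test through 3.5 g/L alone, had 1.13, 1.53 and 1.73 RPKM at 3.5 g/L, against 0.164, 0.353 and 0.473 RPKM at 1 g/L (0.90 ± 0.07, adjusted p = 4.37e-07). Immediate early genes showed 5 higher and 2 lower of 16, with 1 and 0 lower against tag L1 and tag L2 alone, led by Klf10 with 3.56, 5.2 and 6.48 RPKM at 3.5 g/L, against 0.925, 1.37 and 1.58 RPKM at 1 g/L (1.37 ± 0.12, adjusted p = 7.64e-07) and Dusp6 (1.15 ± 0.10, adjusted p = 6.47e-07), both without overlap. Of 8 glucocorticoid-responsive and metallothionein genes 1 rose and 1 fell, of which 1 in all was called without library 97, 99, 101 or 102 of 3.5 g/L or 52 or 54 of 1 g/L, and 3 without library 51 of 1 g/L. Of 9 DNA methylation genes 2 rose and 1 fell. Dnmt3b, a methyltransferase, had 0.473, 0.572 and 0.756 RPKM at 3.5 g/L, against 1.04, 1.22 and 1.41 RPKM at 1 g/L (−0.50 ± 0.06, adjusted p = 1.41e-05), lower in all 6 libraries at 3.5 g/L.

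The libraries at 2 g/L show where levels lay relative to those at 1 and 3.5 g/L. All 6 libraries at 2 g/L carry tag L2 and all 6 at 0 g/L tag L1, so the tag changes along the doses as well. The part of the tag in these levels was not tested. Of the 1595 genes higher at 3.5 than at 1 g/L, the mean at 2 g/L lay between the other doses for 75.9%, above both for 21.2% and below both for 2.88%, and the median gene had covered 71.7% of the log2 difference. Of the 657 lower genes it lay between for 71.5%, below both for 12.9% and above both for 15.5%, with a median share of 52.9%. No test was run on these positions. The genes were chosen because their means at 1 and 3.5 g/L lay apart, which favours a mean at 2 g/L between them. No share over all tested genes was taken. The shares rest on the values as deposited and were not taken under the other scalings. Ehhadh had 24.2, 30.9 and 36.4 RPKM at 0 g/L, 30.1, 40.99 and 43.7 at 1 g/L, 165, 1025 and 1559 at 2 g/L and 733, 1154 and 1819 at 3.5 g/L, so that the ranges of 2 and 3.5 g/L overlapped, with 1 library at 2 g/L far below the others. Acot3 had 0.0143, 0.0480 and 0.0945 RPKM at 0 g/L, 0.0285, 0.0471 and 0.0836 at 1 g/L, 0.665, 2.68 and 8.26 at 2 g/L and 16.6, 29.4 and 62.7 at 3.5 g/L, with no overlap between 2 and 3.5 g/L. Cyp2b9 had 0.226, 0.675 and 1.32 RPKM at 0 g/L, 0.125, 0.271 and 0.897 at 1 g/L, 1.45, 5.83 and 12.6 at 2 g/L and 15.8, 31.4 and 129.5 at 3.5 g/L, and Cyp2a4 had 0.277, 0.3397 and 0.5298 RPKM at 0 g/L, 0.0782, 0.235 and 1.44 at 1 g/L, 1.81, 4.29 and 12.1 at 2 g/L and 22.9, 32.03 and 92.8 at 3.5 g/L. For these 3 genes the median at 1 g/L was not above that at 0 g/L, and every library at 3.5 g/L was above every library at 2 g/L. Lpin2 was lower at 1 than at 0 g/L and higher at 3.5 g/L, with 20.6, 26.2 and 29.9 RPKM at 0 g/L, 11.9, 12.9 and 16.3 at 1 g/L, 21.4, 33.8 and 42.9 at 2 g/L and 58.6, 69.1 and 76.2 at 3.5 g/L. Ccnd1 was highest at 2 g/L, with 3.35, 4.33 and 5.15 RPKM at 0 g/L, 4.02, 4.22 and 6.53 at 1 g/L, 11.2, 16.5 and 22.4 at 2 g/L and 6.47, 11.8 and 16.7 at 3.5 g/L. C9 had 204, 266 and 441 RPKM at 0 g/L, 180.0, 219 and 266 at 1 g/L, 83.7, 101 and 118 at 2 g/L and 26.5, 46.8 and 60.6 at 3.5 g/L, with ranges that overlapped only between 0 and 1 g/L. Elovl3 had 168, 220.5 and 259 RPKM at 0 g/L, 146, 183 and 216 at 1 g/L, 28.8, 76.6 and 89.6 at 2 g/L and 14.8, 31.4 and 57.6 at 3.5 g/L, and Mup21 60.8, 83.5 and 102 RPKM at 0 g/L, 43.9, 96.9 and 115 at 1 g/L, 6.55, 18.9 and 40.6 at 2 g/L and 2.23, 10.1 and 25.2 at 3.5 g/L. Lpin1 had 35.2, 46.2 and 82.7 RPKM at 0 g/L, 3.87, 8.34 and 9.73 at 1 g/L, 4.19, 5.97 and 8.12 at 2 g/L and 5.81, 6.78 and 10.7 at 3.5 g/L, so every library above 0 g/L lay below all 6 at 0 g/L.

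**Figure D5:**
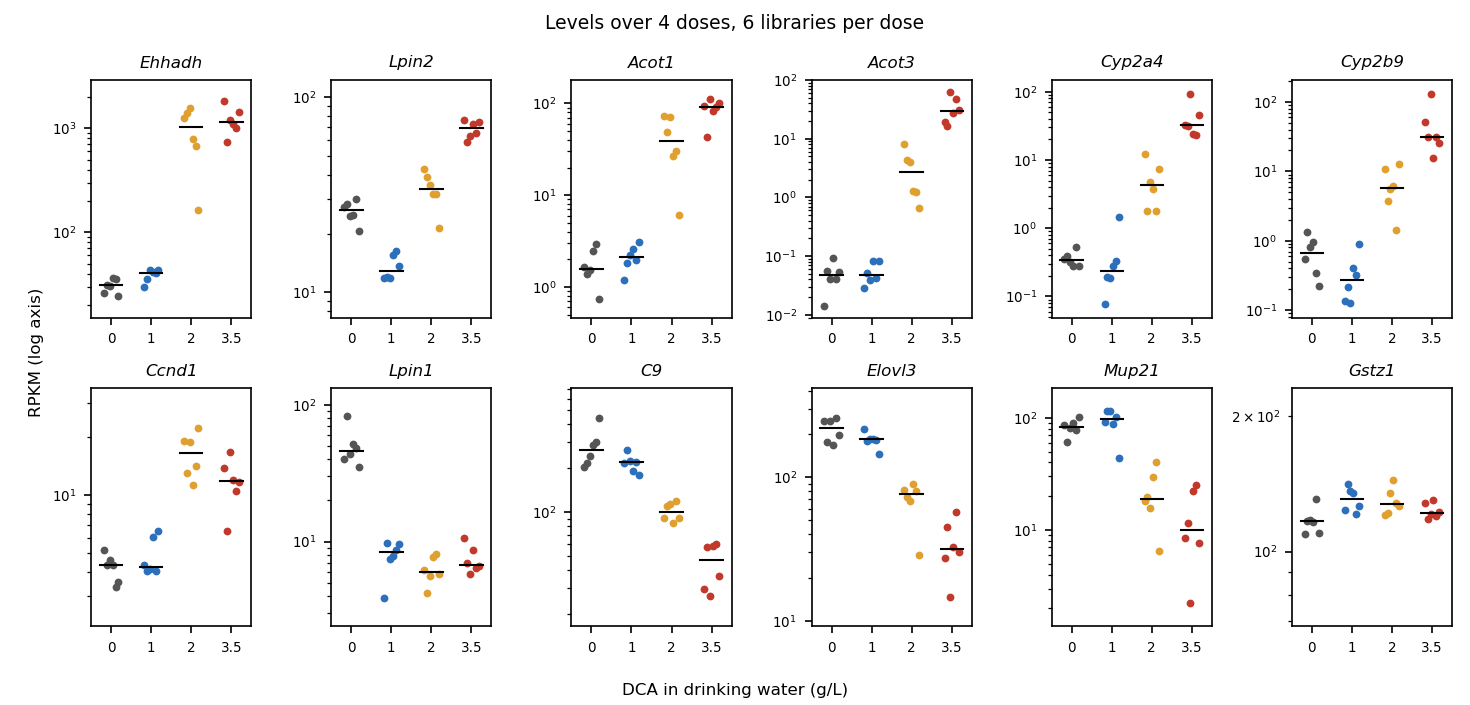
RPKM on log axes of 12 genes at 0, 1, 2 and 3.5 g/L DCA, 6 libraries per dose, with a bar at each median. For Acot3, Cyp2a4 and Cyp2b9 all libraries at 2 g/L lie above those at 1 g/L and below those at 3.5 g/L, while for Ehhadh 2 and 3.5 g/L overlap and for Lpin1 all libraries above 0 g/L lie below those at 0 g/L.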

How the data were processed

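Total RNA of mouse liver, depleted of ribosomal RNA and sequenced on an Illumina HiSeq, was measured in 24 libraries, of which the 12 at 3.5 and 1 g/L DCA were compared. Per the submitters' processing notes the tools were CASAVA, STAR 2.4 and Partek with the mm10 genome, and the authors deposited RPKM values per gene. The annotation, the use of strand in counting and the handling of reads that match several genes are not given in the sources used here, so values of near-identical genes are uncertain, as are those of genes that overlap on opposite strands. The smallest deposited value, 1e-04, stands for 0. The last line is broken off at Olfr272, and genes later in symbol order were not analysed here. That line and 13 lines whose symbols had become dates were left out, which left 15582 of 15596 lines. All columns of values were used (0 unused).

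Genes with at least 0.5 RPKM in at least 6 of the 12 libraries were tested as log2(RPKM + 1) with limma 3.58.1 in R 4.3.3 (linear fit with 1 mean per dose, empirical Bayes with a trend), and p was adjusted by Benjamini-Hochberg over all 6312 genes, with a threshold of 0.05. All adjusted p in the text come from it, and the procedure was tested on simulated data. Read depth is approximate, from the steps between low values of 410 genes, and covers counting error only. Described genes are 6 fixed ones (Lpin1, Gstz1, Ccnd1, Cyp4a10, Cyp4a14 and Ehhadh), the 15 higher and 15 lower genes of largest difference with 1 RPKM or more and no overlap, and the 4 called members of largest difference in each list. Some of these genes are not reported here. Genes outside this rule are said to be chosen after their values were seen. The same holds for Apoa1, Ahsg, Gclc, Gclm, Cyp4a12b, Cyp2d9, Cyp2u1, Mup1 and Mup20. These are not counted among the 221 described genes. The groups, gene lists and rule were chosen with earlier results of these data known. Promoters are from RefSeq for GRCm38.p6, and 176 of 221 described genes had a promoter there. Gene positions are given in GRCm38. Alternatives were other pseudocounts, filters and scalings, a fit to all 24 libraries, 1 g/L libraries of 1 tag alone, limma without the trend, and leaving out each library.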

Additional observations from a re-analysis of the deposited data

Results flagged for a closer look

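In 442 groups of 6 libraries (221 genes at 2 doses), 35 had a highest or lowest library whose gap to its neighbour, relative to the range of the group, passed Dixon's 95% critical value. Chance gives about 1 in 20 such groups, and no explanation was tested. At 3.5 g/L, library 97 was the highest for Cd36 at 19.97, Apoa5 at 135.8, Jun at 6.084 and Nol8 at 4.581 RPKM. At 3.5 g/L, library 98 was the highest for Cyp2c39 at 52.88 RPKM and the lowest for Acsl1 at 340.0 RPKM. At 3.5 g/L, library 99 was the highest for Cyp2b9 at 129.5, Cyp2a4 at 92.78, Cyp2c40 at 24.31, Cox7c at 175.4, Hal at 73.63 and Cyp2c69 at 3.529 RPKM. At 3.5 g/L, library 100 was the highest for Ces2a at 35.98, Ccrn4l at 7.118 and Aox3 at 98.8 RPKM. At 3.5 g/L, library 102 was the lowest for Gbp6 at 0.4892 RPKM. At 1 g/L, library 49 was the lowest for Acat1 at 38.67, Dlst at 30.29 and Cps1 at 614.7 RPKM. At 1 g/L, library 50 was the highest for C8b at 153.9 and Gstp2 at 29.21 RPKM. At 1 g/L, library 51 was the highest for Clec4f at 24.88 RPKM. At 1 g/L, library 52 was the highest for Cpt1b at 1.457, Mvk at 7.113, Cd36 at 5.295, Nr1d1 at 5.712, Herpud1 at 95.6 and Nol8 at 2.989 RPKM. At 1 g/L, library 54 was the highest for Cyp2b9 at 0.8971, Cyp2a4 at 1.44, Ephx1 at 101.8, Cyp7a1 at 11.82 and Cyp2c39 at 6.618 RPKM and the lowest for Nfil3 at 9.315 and C6 at 26.14 RPKM.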

How the results depend on the processing

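The 2252 calls came to 1904 and 1572 with the 1 g/L libraries of tag L1 or tag L2 alone, and to 1919 to 2256 under the other alternatives that kept all 12 libraries. The 1595 higher genes came to 1038 after quantile normalization and to 1016 against tag L2 alone. The 657 lower genes came to 1091 after median-ratio scaling and to 1207 after quantile normalization. Of the 2252 called genes, 1822 kept their call and direction after median-ratio scaling, 1679 after quantile normalization, 1716 against tag L1 alone and 1468 against tag L2 alone. Leaving out each library in turn gave 1961 to 2240 calls, 1409 to 1616 higher and 552 to 715 lower. Of 211 called genes among the 221 described by rule or by choice, 176 were called under every alternative that tested them, and 0 of the 211 changed sign. Of the 10 that were not called, 5 (Lpin1, Mki67, Cyp4a12a, Asgr1 and Cdkn1a) changed sign under at least 1 alternative. The cause of these shifts was not tested. The tag settings also held fewer 1 g/L libraries, and the effect of that was not told apart from the effect of tag. No paired analysis was possible because the doses share no replicate numbers. Without counts, genes near the 0.5 RPKM filter rest on few reads, and no interval could be given for them. Tag L3 and 3.5 g/L cannot be told apart.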

Other observations

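Some genes on none of the lists also stood apart, and all of these were chosen after their values were seen. Lepr, the leptin receptor, had 1.73, 2.26 and 3.27 RPKM at 3.5 g/L, against 0.343, 0.3903 and 0.539 RPKM at 1 g/L (1.21 ± 0.10, adjusted p = 4.29e-07). Dbi, which binds acyl-CoA, had 419, 478 and 549 RPKM at 3.5 g/L, against 197, 266 and 284 RPKM at 1 g/L (0.94 ± 0.10, adjusted p = 4.57e-06). Acnat2, an acyltransferase of the same family as the Acot genes, had 34.2, 59.8 and 85.4 RPKM at 3.5 g/L, against 7.36, 15.8 and 27.4 RPKM at 1 g/L (1.83 ± 0.30, adjusted p = 0.000294). All 3 were higher in every library at 3.5 g/L. Among secreted proteins Mug1, a protease inhibitor, had 318, 344 and 396 RPKM at 3.5 g/L, against 596, 744 and 799.6 RPKM at 1 g/L (−1.05 ± 0.08, adjusted p = 3.5e-07). Apcs, the serum amyloid P component, had 38.3, 52.2 and 59.8 RPKM at 3.5 g/L, against 99.1, 117 and 141 RPKM at 1 g/L (−1.21 ± 0.12, adjusted p = 2.67e-06). Lrg1 had 26.97, 34.4 and 41.7 RPKM at 3.5 g/L, against 52.4, 66.6 and 99.1 RPKM at 1 g/L (−1.02 ± 0.15, adjusted p = 0.000117). Aox3, an aldehyde oxidase, had 57.1, 67.02 and 98.8 RPKM at 3.5 g/L, against 163, 192 and 204 RPKM at 1 g/L (−1.4 ± 0.11, adjusted p = 4.7e-07). Gbp10, another guanylate-binding protein, had 0.455, 1.17 and 1.39 RPKM at 3.5 g/L, against 1.99, 3.36 and 3.93 RPKM at 1 g/L (−1.02 ± 0.13, adjusted p = 3.9e-05). These 5 were lower in every library at 3.5 g/L. Cyp7a1, the rate-limiting enzyme of bile acid synthesis, is on the bile acid list and had 3.801, 7.21 and 17.2 RPKM at 3.5 g/L, against 2.03, 4.17 and 11.8 RPKM at 1 g/L, with overlap and no call (0.64 ± 0.36, adjusted p = 0.179), but it was called without library 54 of 1 g/L (adjusted p = 0.0428, range over all alternatives 0.0428 to 0.363).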
